A study of Mus musculus with 2 samples.

Results

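The genes studied here were 10 genes of the contractile apparatus that mark myofibroblasts and smooth muscle, Acta2, Tagln, Myl9, Cnn1, Tpm1, Tpm2, Actg2, Myh11, Des and Lmod1. They were taken by symbol from the 27998 genes of the deposited single-cell count matrices, where each symbol had 1 row. Alveolar type 2 (AT2) cells were sorted from tamoxifen-treated C57BL/6 mice carrying Sftpc-CreERT2 and R26RTomato, in which Cre driven by the surfactant gene Sftpc marks AT2 cells, and grew into organoids for 2 weeks by the series' design text, a duration on which the sources differ, beside cultured lung stromal cells depleted of CD31, EpCAM and CD45. Control organoids received PBS and the others received IL-1β, a cytokine of the inflammatory response, and each condition gave 1 library of droplet-based scRNA-seq. With 1 library per condition no p-value could be given, so levels are UMIs of a gene per 1000000 UMIs (CPM), summed over the cells of a class, with exact Poisson 95% intervals, ratios of IL-1β over control carry exact conditional 95% intervals, and these cover counting error only.

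Myofibroblasts are fibroblasts that assemble smooth muscle actin into stress fibers and pull on the matrix around them. In the lung they are known for forming septa during alveolar development and for scarring after injury. In the thin filament Acta2 and Actg2 encode smooth muscle actins, Tpm1 and Tpm2 encode tropomyosins that lie along actin, Cnn1 and Tagln encode calponin-family actin binders, and Lmod1 encodes leiomodin, which nucleates actin. In the motor Myh11 encodes the smooth muscle myosin heavy chain and Myl9 a regulatory light chain, and Des encodes the intermediate filament desmin.

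The stromal clusters held 797 control cells with 13588969 UMIs (median 15735 a cell) and 475 IL-1β cells with 9456134 UMIs (median 14849). In this stroma, 8 of 8 stromal markers were found in both libraries, but not at equal levels. Col1a1 was at 1397 and 1404 CPM, Col3a1 at 1671 and 950.1, and Dcn, which encodes decorin, at 225.9 and 5668. Through Dcn the 8 matrix fibroblast markers summed to 980.1 CPM in control and 6411 in IL-1β stroma, and the part of this difference in the contractile levels was not tested.

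The labels name no subtype, so other cell types that express contractile genes were checked. Of 7 smooth muscle genes that are not members, Myocd and Kcnmb1 had 0 UMIs in both libraries and Pln had 1 control UMI, while Smtn, smoothelin, had 197 and 104 UMIs, Synpo2 14 and 3, Ldb3 9 and 8, and Hhip 211 and 5. Their sum was 31.8 and 12.7 CPM. The 7 pericyte markers summed to 82.5 and 170.2 CPM, but Ndufa4l2, at 0.957 and 98.98 CPM, made the IL-1β sum the higher one. Kcnj8 was at 47.5 and 26.8 CPM, Abcc9 at 10.5 and 7.30, Notch3 at 10.2 and 4.12 and Cspg4 at 13.2 and 31.7, Higd1b had 0 UMIs in both, and Rgs5 had 2 and 12 UMIs. The 7 alveolar myofibroblast markers summed to 1374 and 1222 CPM and did not move together. Over the whole stroma Hhip was at 15.5 and 0.529 CPM, Aspn at 64.2 and 6.03 and Ltbp2 at 548.8 and 388.1. Tnc, in contrast, was at 203.1 and 247.6, Postn at 537.4 and 574.1, Fgf18 at 4.05 and 4.55 and Lgr6 at 0.515 and 0.740. These sums do not say which stromal cells held a marker.

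Some clusters inside the stroma, numbered C in the control and I in the IL-1β library, had leading genes of other cell types. C12 (16 cells) had Ager, Aqp5 and Slc34a2 among its first 10 genes, I7 (30 cells) had Slc34a2, Lamp3 and Sftpa1, C9 (50 cells) had Mrc1, C1qc and Fcer1g, which macrophages express, and C13 (12 cells) had the adipocyte genes Adipoq and Plin1. The 6 immune markers summed to 27.9 and 19.7 CPM over the whole stroma. Cd68, at 10.0 and 17.0 CPM, made up most of the IL-1β sum. The other markers were lower there, with 93 and 6 UMIs of Fcer1g, 76 and 1 of Tyrobp, 38 and 18 of Lst1, 28 and 0 of Adgre1 and 8 and 0 of Ptprc. With these 4 clusters left out, 719 and 445 cells remained and the log2 ratio of the 10 contractile genes summed was -2.25, against -2.16 with them. The libraries shared 11 cell barcodes.

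Contractile genes are known targets of serum response factor, which binds a DNA element called the CArG box. Promoter sequence from RefSeq (GRCm38.p6) was at hand for 7 of the 10 genes, all but Tagln, Actg2 and Myh11. The 250 bases before the start were searched for the CArG box (a pair of C, 6 bases of A or T, and a pair of G, a motif that is its own reverse complement, so that both strands were covered). It was found in 1 of the 7, Myl9, against 1.47% of all 32851 promoters. With 1 of the inner 6 bases allowed to be G or C, 2 of the 7 held it, Acta2 and Myl9, against 8.59% of all promoters. These 2 promoters are shown since both hold a match. Capitals mark the matches, which begin 84 and 34 bases before the RefSeq start of Acta2 and 161 and 99 bases before that of Myl9. GENCODE begins Acta2 217 bases and Myl9 44 bases further upstream. By its gene bounds both Acta2 stretches lie inside the gene, and the Myl9 stretch ends just before Myl9. The first Acta2 stretch is chr19:34255438-34255467 and the second chr19:34255388-34255417, both on the minus strand, and that of Myl9 is chr2:156775214-156775419 on the plus strand.
Acta2, first match: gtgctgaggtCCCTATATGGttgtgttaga
Acta2, second match: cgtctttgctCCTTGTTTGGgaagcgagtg
Myl9: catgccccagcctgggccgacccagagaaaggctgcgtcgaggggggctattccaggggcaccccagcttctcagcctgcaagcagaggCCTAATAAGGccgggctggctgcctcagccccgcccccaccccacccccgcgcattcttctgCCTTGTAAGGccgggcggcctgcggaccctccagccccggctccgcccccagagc
The Myl9 match 161 bases before the start is the one without an exception. The windows of Cnn1, Tpm1, Tpm2, Des and Lmod1 did not hold these letters, which is a description of the windows alone.

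Summed over the stroma, each of the 10 genes had its lower level in IL-1β-treated organoids. Together they gave 18363 UMIs or 1351 CPM in the control and 2861 UMIs or 302.6 CPM in the IL-1β stroma, a ratio of 0.224 (interval 0.215 to 0.233). Tpm1, which many cell types express, made up much of this sum, and the other 9 genes gave 822.6 and 104.1 CPM, a ratio of 0.127 (0.118 to 0.135). Among the 10070 genes with at least 100 stromal UMIs, 10.4% were at most 0.5 in ratio and 3.56% were at least 2. Of the contractile genes 7 reached 100 UMIs, and 7 of those 7 were at most 0.5. The UMIs were counted over both libraries, and Myl9, Cnn1 and Lmod1, with 54, 17 and 6 IL-1β UMIs, reached 100 only through the control. The members were also chosen with earlier results of these data known, so this count is a description. The median log2 ratio of all genes tested was -0.33, that of the 7 contractile genes was -3.28, and so the genes lay below a stroma in which most genes were slightly lower in CPM.

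**Figure D1:**
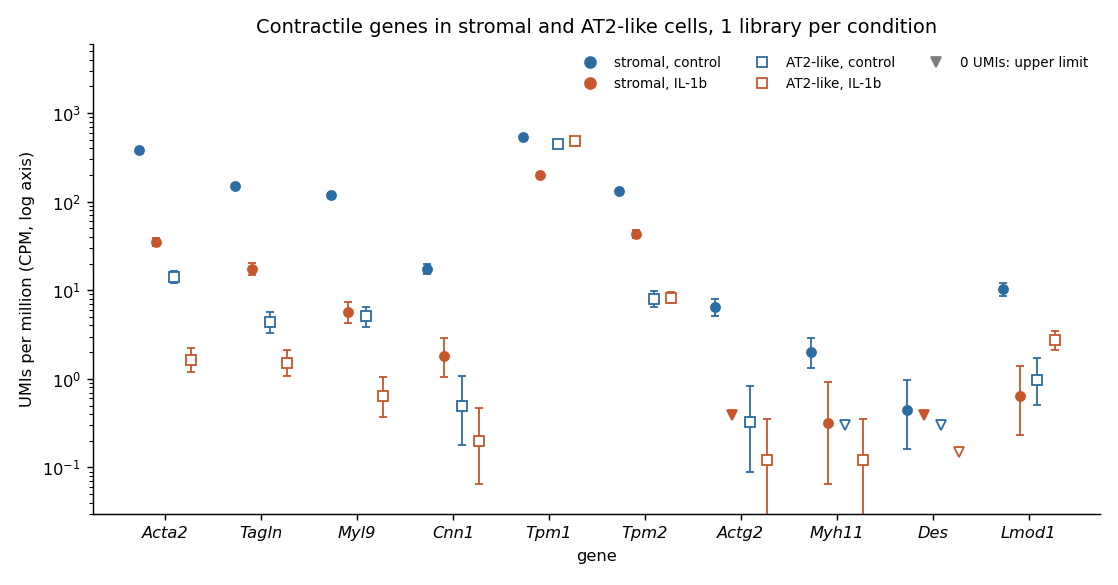
CPM (log axis) of the 10 contractile genes in stromal cells (filled circles) and AT2-like cells (open squares) of the control (blue) and IL-1β (orange) library, with exact Poisson 95% intervals and triangles at the upper limit where 0 UMIs were found. Acta2 was at 385.5 CPM in control and 35.0 in IL-1β stroma, while Tpm1 was at 446.2 and 487.4 CPM in AT2-like cells.

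Of the actins, Acta2 (ENSMUSG00000035783, chromosome 19, 34241090 to 34255590, GENCODE mouse M21) gave 5239 UMIs in the control stroma and 331 in the IL-1β stroma. Its level was 385.5 CPM (interval 375.2 to 396.1) against 35.0 (31.3 to 39.0), a ratio of 0.0908 (0.0810 to 0.101). Actg2 (chromosome 6, 83512905 to 83536265), the enteric smooth muscle actin, had 87 control UMIs or 6.40 CPM and 0 UMIs in the IL-1β stroma. At this depth that allows a ratio of up to 0.0622 by counting error alone, but the control UMIs came from 13 cells, with 35 in 1 cell. Acta2 therefore differed more between the libraries than the median gene did. Actg2 was below the 100 UMIs set for the count of genes past the fold, and its UMIs lay in too few cells for such a comparison.

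Of the actin binders, Tagln (chromosome 9, 45929619 to 45936058) was at 151.7 CPM from 2061 UMIs in the control and 17.4 CPM from 165 UMIs in the IL-1β stroma, a ratio of 0.115 (0.0976 to 0.135). Cnn1 (chromosome 9, 22099216 to 22109630) was at 17.5 and 1.80 CPM, from 238 and 17 UMIs, a ratio of 0.103 (0.0588 to 0.168). Lmod1 (chromosome 1, 135324807 to 135368065) was at 10.2 and 0.635 CPM, from 139 and 6 UMIs, a ratio of 0.0620 (0.0224 to 0.138). The 3 intervals overlapped one another and that of Acta2 reached into those of Tagln, Cnn1 and Lmod1, so these 4 genes could not be ordered by ratio.

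With the cell filter used here, the tropomyosins stood apart. Tpm1 (chromosome 9, 67022590 to 67049406) was at 528.7 CPM in the control against 198.5 for the IL-1β stroma, a ratio of 0.375 (0.357 to 0.395). Tpm2 (chromosome 4, 43514711 to 43523765) was at 131.0 and 43.1 CPM, a ratio of 0.329 (0.295 to 0.367). Their ratios overlapped each other and were above the intervals of the other 5 genes that reached 100 UMIs. With no filter on barcodes this did not hold for Cnn1. Its log2 ratio was then -1.41, against -1.34 for Tpm1 and -1.61 for Tpm2.

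Of the motor, Myl9 (chromosome 2, 156775420 to 156781658) gave 117.8 CPM from 1601 UMIs in the control and 5.71 CPM from 54 UMIs in the IL-1β stroma. Its ratio of 0.0485 (0.0363 to 0.0636), or 20.6-fold lower, lay below the interval of Acta2. Myh11 (chromosome 16, 14194535 to 14291372) had 27 control UMIs and 3 in the IL-1β stroma, a ratio of 0.160 (0.0310 to 0.519). Des (chromosome 1, 75360329 to 75368579) had 6 control UMIs and 0 in the IL-1β stroma, which at this depth allows a ratio of up to 1.22. Both genes are typical of mature smooth muscle. Des was close to the limit of detection in either library, and Myh11 was so in the IL-1β stroma. The control level of Myh11 was low, at 1.99 CPM (1.31 to 2.89).

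With the cell filter used here, the members made up a smaller share of the UMIs of each protein family in the IL-1β stroma. Acta2 and Actg2 were 6.68% of the UMIs of 5 actin genes (Acta2, Actg2, Acta1, Actb and Actg1) in the control (exact binomial interval 6.51% to 6.86%) and 1.29% (1.16% to 1.44%) in the IL-1β stroma. Myl9 was 14.4% (13.7% to 15.1%) and 1.43% (1.08% to 1.87%) of the UMIs of the regulatory light chains Myl9, Myl12a and Myl12b. Tpm1 and Tpm2 together were 58.2% (57.4% to 59.0%) and 43.3% (42.0% to 44.7%) of the UMIs of 4 tropomyosins. Cnn1 was 4.30% (3.78% to 4.87%) and 1.48% (0.864% to 2.36%) of those of 3 calponins. The Cnn1 share rested on few cells, since 15 of its 17 IL-1β UMIs came from 3 cells. A single IL-1β barcode that the cell filter set aside held 64 Cnn1 UMIs, so the direction of this share was not settled. These shares do not depend on how the library total is set, but UMIs from sequence that actin genes have in common may have been assigned to neither gene.

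Beside them, 3 lists of related genes were examined, chosen, like the members, with earlier results of these data known. The partners are proteins of the thin filament, stress fiber and adhesion, of which 20 of the 27 in the files reached 100 UMIs. Of these 20, 11 were at most 0.5 in ratio, against 10.4% of all genes, and 0 were at least 2, against 3.56%. Their median log2 ratio was -1.09. Among the 11, Fhl1, Fhl2 and Csrp2 had 37, 53 and 56 IL-1β UMIs and reached 100 only through the control, so this count is a description. Fhl1 and Fhl2, LIM proteins that bind actin regulators, were at 0.111 (0.0770 to 0.155) and 0.119 (0.0880 to 0.157). Mylk, the kinase that phosphorylates the regulatory light chain, was at 0.118 (0.104 to 0.132) and Cnn2, another calponin, at 0.173 (0.155 to 0.193).

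The cytoplasmic counterparts, genes for the actins, myosins and vimentin that most cells use, were lower by less. Of 8 tested, 2 were at most 0.5, against 10.4% of all genes. These were Actb at 0.451 (0.443 to 0.459) and Myh10 at 0.291 (0.253 to 0.335), and the median log2 ratio of the 8 was -0.86. Of 16 regulators tested, 3 were at most 0.5 and 1 was at least 2, with a median of -0.53, and such counts are near the 10.4% and 3.56% of all genes, so that the values below describe single genes. Foxf1, a mesenchymal transcription factor, was at 0.336 (0.296 to 0.380), the ligand gene Tgfb3 at 0.292 (0.240 to 0.353) and the receptor gene Notch3 at 0.406 (0.277 to 0.583). Tgfb1, which encodes a ligand known to induce Acta2, went the other way, from 53.8 to 144.6 CPM, a ratio of 2.69 (2.45 to 2.94). Srf itself was at 19.8 and 14.9 CPM, a ratio of 0.753 (0.610 to 0.927).

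**Figure D2:**
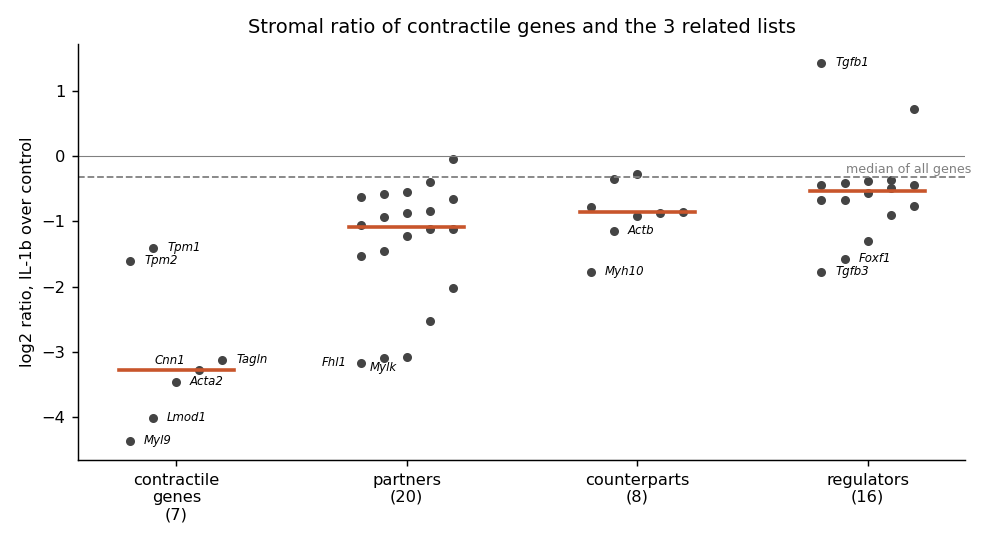
Log2 ratio of IL-1β over control in stromal cells for the contractile genes and 3 lists of related genes, each point 1 gene with at least 100 UMIs, orange bars the list medians and the dashed line the median of all genes (-0.33). The contractile genes had a median of -3.28 and the partners one of -1.09, with Tgfb1 the highest of the regulators.

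The levels rested on few cells. In the control stroma Acta2 had a median of 0 UMIs per 10000 over cells, 2.70 at the 90th percentile, 61.9 at the 99th percentile and 251.5 in the highest cell. In the IL-1β stroma it was 0 at the 90th percentile, 2.60 at the 99th percentile and 50.2 in the highest cell. After thinning each cell to 5000 UMIs, which left 778 control and 473 IL-1β cells, the highest 10% of cells held 92.4% of the control Acta2 UMIs. In the IL-1β stroma 15 of the 473 cells had any Acta2 UMI at this depth, too few for this share to be informative. The same share in the control was 94.99% for Tagln, 78.9% for Myl9, 68.6% for Tpm2 and 32.0% for Tpm1. Acta2 and Tagln thus came mostly from a small number of cells in the control, and Tpm1 was spread over most stromal cells.

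**Figure D3:**
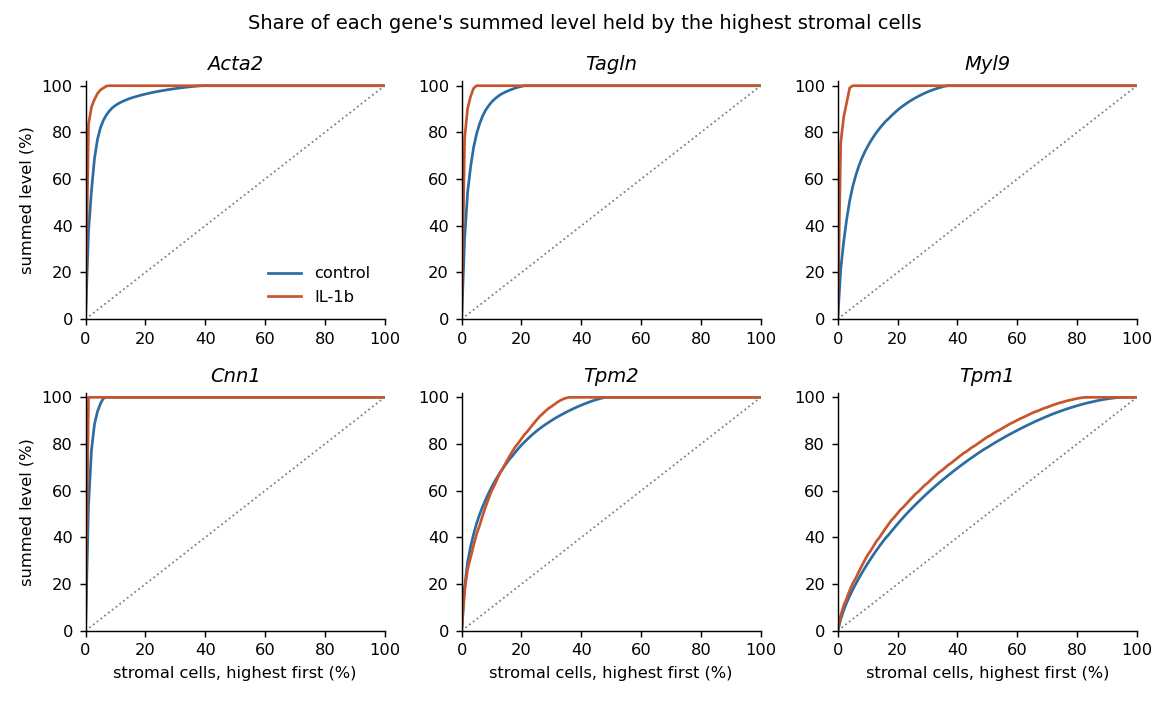
Cumulative share of a gene's summed level (percent of the sum of UMIs per 10000) over stromal cells ranked from the highest (percent of cells) in the control (blue) and IL-1β (orange) library, with the dotted line for an even spread. The curves of Acta2, Tagln and Cnn1 were the steepest and that of Tpm1 lay nearest to the even spread. Few cells with a UMI make a curve steep by themselves. Cnn1 had a UMI in 50 of 797 control and 5 of 475 IL-1β cells.

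At 5000 UMIs per cell, an Acta2 UMI was found in 22.0% of control stromal cells (exact interval 19.1% to 25.1%) and in 3.17% of IL-1β stromal cells (1.79% to 5.18%). In AT2-like cells, which should lack the gene, the shares were 7.08% in the control and 0.614% for the IL-1β library, with median depths of 13992 and 11216 UMIs against 15735 and 14849 in stroma. Both stromal shares were above the share in AT2-like cells of their own library. Unthinned, 312 of 797 control and 34 of 475 IL-1β stromal cells had an Acta2 UMI.

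For Tagln the thinned shares were 12.9% and 1.90% of stromal cells against 2.44% and 0.520% of AT2-like cells. For Myl9 they were 19.9% and 0.846% of stromal cells against 1.95% and 0.520%. The Myl9 share in IL-1β stroma, 4 of 473 cells (0.231% to 2.15%), had an interval that took in the AT2-like share, so the 2 classes were not separated at this depth. Unthinned they were, at 4.21% of stromal cells (2.59% to 6.43%) against 0.754% of AT2-like cells (0.432% to 1.22%). Tpm1 was found in 79.6% of control and 57.1% of IL-1β stromal cells, and in 88.2% and 88.8% of AT2-like cells, which express it.

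Several members were found in the same cells. Leaving out Tpm1, at least 4 of the 9 other genes were found in 52 of 778 thinned control stromal cells (6.68%, interval 5.03% to 8.67%) and in 3 of 473 IL-1β cells (0.634%, 0.131% to 1.84%). In AT2-like cells 0 of 819 control and 0 of 2116 IL-1β cells did so, which allows up to 0.449% and 0.174%. None of the 9 genes was found in 53.2% of control and 81.0% of IL-1β stromal cells at this depth.

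Over the 797 control stromal cells the Pearson correlation of log-scaled values was 0.80 between Acta2 and Tagln, 0.74 between Acta2 and Myl9, 0.67 between Acta2 and Cnn1 and 0.65 between Acta2 and Tpm2. Over the 475 IL-1β cells it was 0.77 between Acta2 and Tagln and 0.76 between Acta2 and Myl9. These are descriptions of cells that share a library and differ in depth. Without cells over 10 Acta2 UMIs per 10000 described next, the correlation with Tagln was 0.41 over 753 control and 0.29 over 472 IL-1β cells. Leaving out cells by their Acta2 level narrows its range, which by itself can lower a Pearson correlation. This drop therefore does not show what the correlation rested on. The Spearman (rank) correlation of Acta2 and Tagln over all stromal cells was 0.41 for 797 control and 0.19 for 475 IL-1β cells.

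Acta2 exceeded 10 UMIs per 10000 in 44 control stromal cells (5.52%) and in 3 IL-1β stromal cells (0.632%), a threshold set after the distributions were seen. In the control, 9 cells lay between 8 and 12, and in the IL-1β stroma 0 did. The 44 control cells held 85.4% of the Acta2 UMIs of their stroma, 78.1% of those of Tagln, 89.9% of those of Cnn1, 59.5% of those of Myl9, 47.3% of those of Tpm2 and 17.9% of those of Tpm1. They held 83 of the 87 Actg2 UMIs, which came from 9 of the cells, and 25 of the 27 Myh11 UMIs. Tagln was found in 43 of the 44 and Myl9 in 43, against 16.6% and 33.1% of the other control cells. Cnn1 was found in 28, Lmod1 in 20 and Tpm2 in 42. The cells were selected by Acta2, so its share was set by the selection, and genes that vary with Acta2 follow it. Most UMIs of Tagln, Cnn1, Myl9, Actg2, Myh11 and Lmod1 (53.2%) also lay in these cells, which is a description.

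Depth in the 44 cells was a median of 21506 UMIs, against 15503 in the other control stromal cells. Col1a1 was found in 37 of them, Col3a1 in 35 and Pdgfrb in 28. No cell among them had 2 or more endothelial or 2 or more immune markers, 1 had 2 or more Epcam UMIs and 2 had 3 or more cycling markers. Their median Scrublet score was 0.167 against 0.103 in the rest, and 8 of the 44 were among the 5% of control cells with the highest scores. The part of doublets in these levels was not tested.

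The 3 IL-1β cells gave 256 of the 331 Acta2 UMIs (77.3%), 126 of the 165 Tagln UMIs, 35 of the 54 Myl9 UMIs and 15 of the 17 Cnn1 UMIs of that stroma. The first cell, of 38404 UMIs, had 112 Acta2, 42 Tagln, 11 Myl9, 9 Cnn1 and 17 Tpm2 UMIs, and UMIs of 5 of 5 cycling markers. In the second, of 38163 UMIs, 79 Acta2, 74 Tagln, 20 Myl9, 4 Cnn1 and 18 Tpm2 UMIs were counted, but no UMI of Col1a1, Col3a1 or Pdgfrb. The third, of 12957 UMIs, had 65 Acta2, 10 Tagln, 4 Myl9, 2 Cnn1, 14 Tpm2 and the only 3 Myh11 UMIs. Each of the 3 had 0 endothelial markers and 0 Epcam UMIs. Without them the ratio of the 10 genes summed, on the log2 scale, went from -2.16 to -2.46 and that of Acta2 from -3.46 to -5.59, which leaves the 44 control cells in. With the cells over 10 Acta2 UMIs per 10000 left out of both libraries, the summed log2 ratio was -1.52, that of Acta2 -2.93, that of Myl9 -4.67 and that of Tpm2 -0.96. That of Tagln was -3.11, against -3.12 with all cells. For Cnn1 it was -3.16, from 24 and 2 UMIs, against -3.28. Then 4 of the 5 members that reached 100 UMIs were at most 0.5, against 10.7% of 9948 genes, and Tpm2 was the exception.

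The cell filter set aside a few cells that mattered for these sums. Of the barcodes with 7000 or more genes, 12 control and 7 IL-1β barcodes clustered with the stroma when no filter was used, with medians of 66047 and 86201 UMIs. One of the 7 IL-1β barcodes, with 86246 UMIs and 7680 genes, had 512 Acta2, 208 Tagln, 127 Myl9 and 64 Cnn1 UMIs, more of Acta2 than the 475 kept cells together. It had 22 Col1a1, 6 Pdgfrb and 0 Epcam UMIs. In the control 4 such barcodes were over 10 Acta2 UMIs per 10000, with 250 to 272 Acta2 UMIs each. With these barcodes kept, Acta2 was at 440.0 CPM in the control against 83.5 for the IL-1β stroma, Myl9 at 126.1 and 17.99, and Cnn1 at 21.3 and 8.01, with log2 ratios of -2.40, -2.81 and -1.41 in place of -3.46, -4.37 and -3.28. The size of the Acta2, Myl9 and Cnn1 ratios therefore depended on few barcodes. Those of Tpm1 and Tpm2 moved little, at -1.34 and -1.61 in place of -1.41 and -1.60. Each gene with UMIs in both libraries stayed lower in the IL-1β stroma. Whether such barcodes are single cells was not tested.

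Below that threshold the libraries differed as well. The other 753 control stromal cells gave 61.0 CPM of Acta2 (56.8 to 65.5) and the other 472 IL-1β cells 8.01 (6.30 to 10.0). Myl9 was at 51.7 CPM (47.8 to 55.8) and 2.03 (1.22 to 3.17) in these cells, and Tagln at 36.0 (32.8 to 39.5) and 4.16 (2.96 to 5.69). The AT2-like cells gave 14.2 CPM of Acta2 in the control and 1.64 for the IL-1β library, and 5.08 and 0.641 of Myl9, so the level in cells that should lack these genes differed between the libraries in the same direction. How much free RNA adds to the stromal levels was not tested. Tpm1 was at 470.1 and 192.2 CPM in the remaining stromal cells, nearly as far apart as in the whole stroma.

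The members were left out of the genes used for clustering, and each library's stroma was clustered on its own, into 13 control clusters (C1 to C13) and 9 IL-1β clusters (I1 to I9). Acta2 was high in 2 control clusters, C2 and C11, and in 1 IL-1β cluster, I8, which were singled out by these values. C2 (84 cells) had Thbs1, Wisp2 and Ctgf, a known target of TGF-β signaling, among its leading genes and gave 1857 CPM of Acta2, 691.3 of Tagln and 459.3 of Myl9. C11 (28 cells) was led by Acta1, the skeletal muscle actin, with Uchl1, Hspb1 and Cthrc1, and gave 3217 CPM of Acta2, 1668 of Tagln and 734.2 of Myl9. Its cells were shallow, at a median of 6532.5 UMIs, and Col1a1 was at 195.8 CPM there. Other control clusters had 21.5 to 67.7 CPM of Acta2. The marker Hhip lay mostly outside the pair, with 3 UMIs in C2 and 0 in C11. It had the most, 59 UMIs, in C4, which had Aspn among its leading genes and 23.9 CPM of Acta2.

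The pair of control clusters differed in Lmod1 and, by the counts, in Actg2. C2 had 83 Actg2 UMIs or 40.2 CPM (32.0 to 49.8), and C11 had 1 UMI or 3.50 CPM (0.0885 to 19.5). Of the C2 UMIs 35 came from 1 cell, a spread over cells that these intervals do not cover. For Lmod1 C2 was at 43.1 CPM (34.6 to 53.1) and C11 at 6.99 (0.847 to 25.3). Tpm2 went the other way, at 465.1 CPM (436.1 to 495.5) in C2 and 926.5 (818.3 to 1045) in C11. For Tpm1 C2 was at 959.7 CPM (917.9 to 1003) and C11 at 734.2 (638.3 to 840.5), so the tropomyosins were not in the same proportion in the pair.

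The IL-1β cluster I8 (23 cells, 4.84% of that stroma) was led by Ctla2a and Emcn, with Ctgf and the endothelial gene Cldn5 among its first 10 genes. It gave 463.0 CPM of Acta2 (412.2 to 518.4), 227.7 of Tagln, 67.7 of Myl9 and 23.1 of Cnn1, and the other IL-1β clusters had between 0 and 5.36 CPM of Acta2. Of the 23 cells, 3 were over 10 Acta2 UMIs per 10000 and 4 had 2 or more endothelial markers, with 0 cells being both, so it was a mixed cluster. The 5 endothelial markers summed to 2.65 CPM in the control and 25.7 CPM in the IL-1β stroma. Without the 3 cells the highest IL-1β cluster had 61.9 CPM of Acta2.

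**Figure D4:**
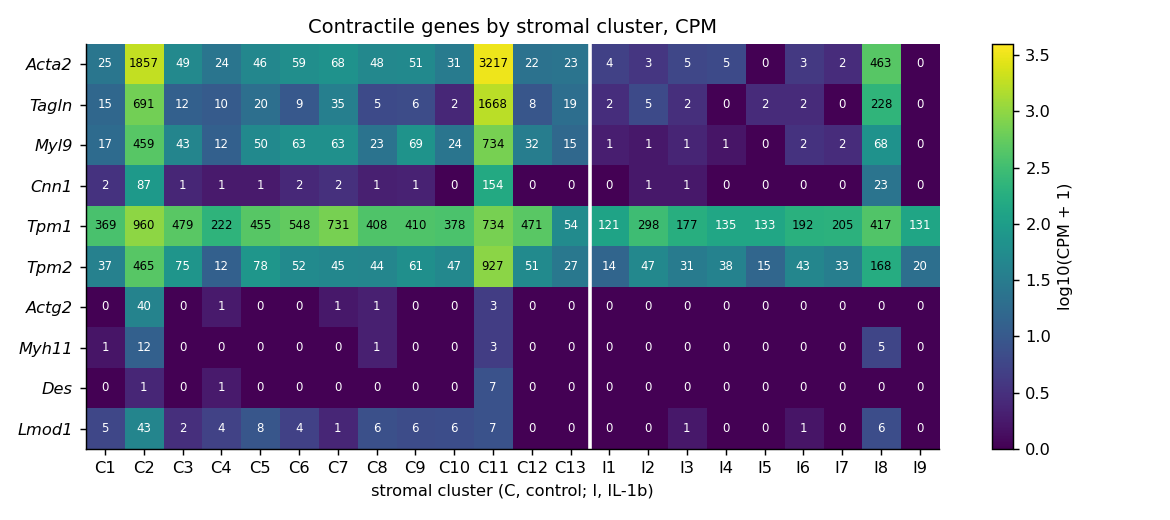
CPM of the 10 contractile genes (rows) in the 13 control (C) and 9 IL-1β (I) stromal clusters (columns), with color for log10(CPM + 1). C2 and C11 held the highest control values (1857 and 3217 CPM of Acta2) and I8 the highest of the IL-1β stroma (463.0).

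C2 and C11, 14.1% of control stromal cells, held 90.7% of the Acta2 UMIs, 92.4% of those of Tagln, 93.7% of those of Cnn1, 72.3% of those of Myl9, 68.8% of those of Tpm2, 65.5% of those of Lmod1 and 30.5% of those of Tpm1. In these clusters Acta2 was 46.8-fold higher than in the other control clusters (interval 42.6 to 51.4), Tagln 58.0-fold, Myl9 12.5-fold, Tpm2 10.6-fold and Tpm1 2.10-fold. I8 held 90.9% of the Acta2 UMIs, 89.7% of those of Tagln and 81.5% of those of Myl9 of the IL-1β stroma, but 26.7% of those of Tpm2. Outside C2, C11 and I8, Acta2 was at 43.2 CPM in the control against 3.41 for the IL-1β stroma (ratio 0.0788, 0.0526 to 0.114), Myl9 at 39.4 and 1.14 (0.0288, 0.0137 to 0.0535), and Tpm2 at 49.4 and 34.0 (0.688, 0.595 to 0.793). These clusters were chosen by their Acta2 level, and 3 cells gave 256 of the 301 Acta2 UMIs of I8, so the split is a description.

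The partners were not all high where the members were. Between C2 with C11 and the other control clusters, 10 of 20 partners were at least 2 in ratio, against 3.55% of the 8947 genes with 100 UMIs there. Fhl1 was 24.3-fold higher (19.0 to 31.3), Nexn, an actin-binding protein, 6.93-fold (5.69 to 8.45), Cald1, caldesmon, 4.36-fold (4.14 to 4.58) and Cnn2 3.30-fold (3.07 to 3.55). Mylk, however, was at 94.5 CPM in C2 and C11 and 298.9 in the other clusters, a ratio of 0.316 (0.275 to 0.362), so the kinase of the light chain was lower where Myl9 was high. In the IL-1β stroma Mylk was at 38.5 CPM in I8 and 30.4 elsewhere, a ratio of 1.26 (0.803 to 1.91). There 10 of 17 partners were at least 2 in ratio, against 7.51% of 7259 genes.

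Of 8 counterparts 6 were at least 2 in ratio in C2 and C11, against 3.55% of all genes tested there. Among them were Actb at 2.53 (2.48 to 2.57) and Vim at 2.27 (2.18 to 2.35). Of 16 regulators 3 were, Mkl1 (3.61, 2.74 to 4.75), which encodes a coactivator of Srf, the kinase gene Rock2 (3.17, 2.77 to 3.62) and Klf4 (2.69, 2.31 to 3.12). Tgfb2 and Tgfbr1 were lower there, at 0.212 (0.166 to 0.267) and 0.304 (0.218 to 0.414), and also in I8, at 0.144 (0.0575 to 0.298) and 0.267 (0.152 to 0.436). The Srf ratio was 1.15 (0.830 to 1.56) in the control clusters. In I8, 5 of 8 counterparts and 2 of 15 regulators were at least 2 in ratio, against 7.51% of all genes tested there.

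By the correlation of each gene with the mean of the members over control stromal cells, the 8 genes most alike among 8749 included Pdlim1 (0.62), Ddah1 (0.59), Cnn2 (0.56), Nexn (0.55), Cald1 (0.55), Fam150a (0.53) and Ctgf (0.53). In the IL-1β stroma, among 8541 genes, they were Ddah1 (0.45), Fam198b (0.40), Cyr61 (0.39), Plaur (0.39), Cnn2 (0.38), Sgk1 (0.38), Tnfrsf12a (0.37) and Nexn (0.37). Ddah1, Cnn2 and Nexn were on both lists of 8.

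In the epithelium most members were at a low level. Tpm1 was the exception in each named class. In DATP-like cells Tpm2 was one and, against the IL-1β stroma, so was Myl9, and both were uneven over cells. Clusters were named from markers as AT2-like, alveolar type 1 (AT1)-like, cycling-like and DATP-like, the last for a transitional state between AT2 and AT1 cells that expresses Krt8, Cldn4 and Ndrg1. Different clusters held most of a class in the libraries, one led by Bex2 in the control against 4 led by Cxcl5, Gstm1, BC030867 and Ceacam10 in the IL-1β AT2-like cells, one led by Igfbp2 against one led by AW112010 for AT1-like cells, and one led by Sprr1a in the control against another cluster for DATP-like cells. Acta2 was at 14.2 CPM in control and 1.64 in IL-1β AT2-like cells, a ratio of 0.115 (0.0800 to 0.163), and at 18.7 and 1.64 CPM in AT1-like cells. The highest count in 1 AT2-like cell was 3 UMIs in the control and 2 for the IL-1β library, so none reached the counts of the high stromal cells.

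Tpm1 was expressed throughout the epithelium. It was at 446.2 CPM (434.4 to 458.2) in control and 487.4 (478.7 to 496.1) in IL-1β AT2-like cells, at 608.5 (584.1 to 633.7) and 740.4 (716.4 to 764.9) in AT1-like cells, and at 680.5 (598.1 to 771.1) and 649.2 (599.5 to 701.9) in DATP-like cells. In the control the order of the named classes was DATP-like, AT1-like, stromal, AT2-like and cycling-like, of which the first pair and the last pair had overlapping intervals. In the IL-1β library stroma was lowest of the named classes, at 198.5 CPM. The 9 airway-like cells were at 256.7 CPM, with an interval (194.4 to 332.6) that took in the stromal level. Tpm1 was therefore lower in stroma than in AT2-like cells in the IL-1β library and higher in the control.

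Tpm2 was at 8.02 and 8.22 CPM in AT2-like cells, at 10.4 (7.44 to 14.2) and 24.8 (20.6 to 29.7) in AT1-like cells, and at 390.0 (328.3 to 460.0) and 275.7 (243.7 to 310.8) in DATP-like cells. It was among the first 10 genes of both DATP-like clusters, although it was left out of clustering. In the control, however, 134 of the 141 DATP-like UMIs came from 1 of 25 cells, of 39312 UMIs, and without it the class would rest on 7 UMIs. In the IL-1β library 42 of 85 cells had a Tpm2 UMI, and 7 cells with at least 10 UMIs each held 175 of the 268 UMIs (65.3%). Epcam, Krt8 and Krt19 were found in 7 of these 7, Col1a1 in 1 and Pdgfrb in 0. They also held 26 of the 34 Myl9 UMIs of that class and 2 Acta2 UMIs. The DATP-like Tpm2 level was thus uneven over cells in both libraries, and in the control it was set by 1 cell.

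Myl9 was at 9.11 CPM (6.35 to 12.7) in control AT1-like cells, against 117.8 in control stroma. In the IL-1β library it was at 10.7 CPM (7.97 to 14.0) in AT1-like cells, against 5.71 (4.29 to 7.45) in stroma. Of the 52 UMIs of the IL-1β AT1-like cells, however, 36 came from 1 cell and 44 from 3 cells, so this order rested on single cells. In DATP-like cells Myl9 was at 27.7 CPM (13.3 to 50.9) in the control and 35.0 (24.2 to 48.9) in the IL-1β library, the latter above IL-1β stroma. Of the 10 control UMIs 9 came from 1 cell. The 34 IL-1β UMIs came from 9 of 85 cells, with 22 from 3 cells. Lmod1 was at 0.982 and 2.73 CPM in AT2-like cells, a ratio of 2.77 (1.49 to 5.63), with its 68 IL-1β UMIs spread over 63 cells. Actg2, Myh11 and Des had between 0 and 4 UMIs in each AT2-like, AT1-like and DATP-like class of either library.

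**Figure D5:**
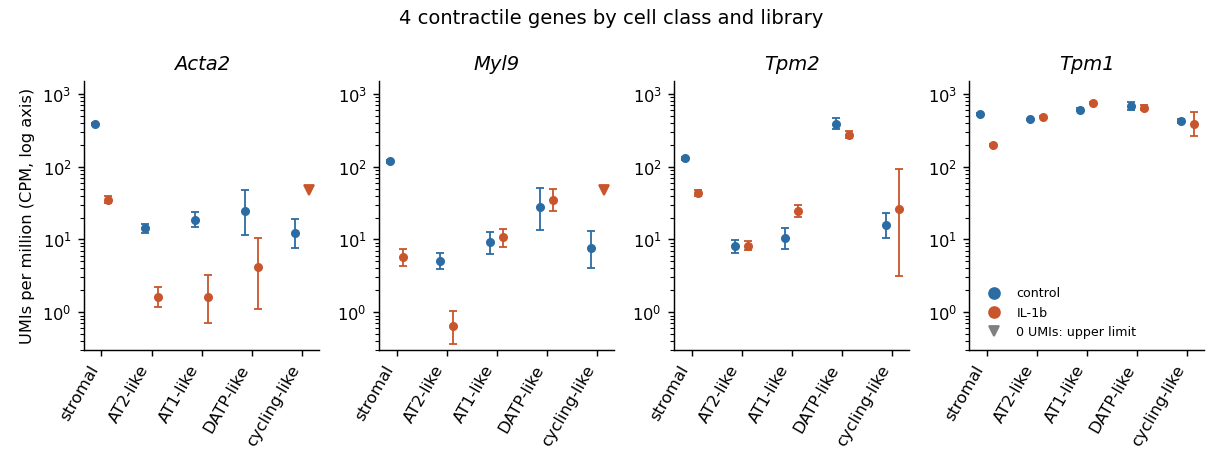
CPM (log axis) of Acta2, Myl9, Tpm2 and Tpm1 in stromal and epithelial classes of the control (blue) and IL-1β (orange) library, with exact Poisson 95% intervals. Acta2 was highest in control stroma, Tpm2 reached 390.0 and 275.7 CPM in DATP-like cells (134 of 141 control UMIs from 1 cell), and Tpm1 lay between 446.2 and 740.4 CPM in AT2-like, AT1-like and DATP-like cells.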

How the data were processed

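The deposited matrices hold raw UMI counts per gene and cell barcode, which the authors made with Cell Ranger 2.0.2 on GRCm38 from Chromium 3' libraries, and the submitters' processing notes also name mm9 and Scanpy 1.3.6. The authors' cell cutoffs had not been applied in the files. They hold 2101 control and 3066 IL-1β barcodes with 33965848 and 41220175 UMIs. Kept barcodes had over 500 genes, under 7000 genes and over 2000 UMIs. Of these, 3 of 5142 (0.0583%) were removed by the study's Scrublet rule, a score over 0.7 or a cluster mean over 0.6. So few were removed that doublets must be assumed to remain, and their share was not tested.

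Cells were clustered with scanpy 1.11.5 and leidenalg 0.10.2 (50 components, 15 neighbors, resolution 1.0), without the members and related genes. A cluster was stromal when its mean stromal marker level, scaled to the highest cluster, exceeded its epithelial one. This rule was set after summed marker UMIs had put AT1-like cells with the stroma. UMIs were summed per class and library. With 1 library per condition a gene was counted as past the fold at a ratio of at most 0.5 or at least 2, from 100 UMIs. Intervals are exact at 95%, and a count of 0 is given with its upper limit. Positions of genes were read from GENCODE mouse M21. The text names all 10 members, genes of the related lists, and by likeness the 8 genes per library with the highest correlation among those in at least 10% of cells. One gene among these and among the leading genes of clusters is not reported here. Members, lists and clusters singled out were chosen with earlier results of these data known. The ratio with its interval was tested on simulated counts and the thinning on known counts. The simulated counts had Poisson error alone, without the spread over cells seen here. Clustering, cell classes and doublet removal were not tested in this way.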

Additional observations from a re-analysis of the deposited data

Results flagged for a closer look

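In 4 cases a contractile gene differed between the libraries in one direction in stroma and in the other in an epithelial class, and the difference between the directions was not tested. Tpm1 had a ratio of IL-1β over control of 1.09 (interval 1.06 to 1.13) in AT2-like cells and of 1.22 (1.15 to 1.28) in AT1-like cells, against 0.375 in stroma. The AT2-like clusters were not alike in Tpm1. The control cluster led by Bex2 was at 443.8 CPM. Of the IL-1β clusters, those led by Cxcl5 and Ceacam10 were at 631.2 and 456.6 CPM. Those led by Gstm1 and BC030867 were lower than the control cluster, at 420.4 and 388.0 CPM. Tpm2 had a ratio of 2.38 (1.65 to 3.50) in AT1-like cells against 0.329 in stroma, and 35.5% of its IL-1β AT1-like UMIs came from 3 cells. Lmod1 had a ratio of 2.77 (1.49 to 5.63) in AT2-like cells, from 12 and 68 UMIs, against 0.0620 in stroma.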

How the results depend on the processing

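The summed log2 ratio of the 10 genes, -2.16, was below 0 under each of 16 alternatives. It was -1.85 with no filter on barcodes, -1.62 with stromal cells picked one by one (which takes in AT1-like cells through Sparc), -1.997 with the highest 5% of Scrublet scores removed, -1.98 with genes over 1% of stromal UMIs left out of the total, and -1.83 with the median gene ratio set to 1. Chosen after seeing the data, leaving out cells with cycling markers gave -2.24, leaving out the 3 highest IL-1β cells -2.46, leaving out cells over 10 Acta2 UMIs per 10000 in both libraries -1.52, leaving out C11 -2.01, and leaving out C9, C12, C13 and I7 -2.25. The number of members past the fold was 9 of 9 tested at 20 UMIs (13.4% of all genes), 6 of 7 with cells picked one by one (7.25%), 4 of 5 without the cells over 10 in both libraries (10.7%), 7 of 7 at a fold of 1.5 (27.3%), and 7 of 7 under the other alternatives. The share of control stromal cells with an Acta2 UMI, 22.0%, was 17.6% with cells picked one by one, 18.3% without high Scrublet scores, 17.4% without the cells over 10 in both libraries, 27.8% at 8000 UMIs and 39.1% unthinned, and in the IL-1β stroma it was 7.16% unthinned. The share of control Acta2 UMIs in the highest 10% of cells, 92.4%, was 94.2% without high Scrublet scores, 93.9% without cycling cells, 90.6% without C11 and 73.5% without the cells over 10. The Acta2 level of the highest IL-1β cluster lay between 61.9 and 686.5 CPM. In each of these the cause was not tested beyond what the setting removed. Leaving out cycling stromal clusters was not run, because no stromal cluster was led by cycling markers.

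One library per condition means that the treatment and the library cannot be told apart, nor can altered expression within cells be told apart from altered cell mixture. No paired analysis was possible because each condition had 1 library.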
